A study of Saccharomyces cerevisiae with 9 samples.

Results

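The transcripts of 10 regulators of the yeast stress response were followed through a slow and a sudden heating to 50 °C. They are the genes HSF1 (YGL073W), MSN2 (YMR037C), MSN4 (YKL062W), YAP1 (YML007W), SKN7 (YHR206W), GIS1 (YDR096W), XBP1 (YIL101C), RIM15 (YFL033C), YAK1 (YJL141C) and BCY1 (YIL033C). They were chosen by name from the 7126 annotated features of the deposited tables, all 10 are protein-coding genes, and all 10 passed the filter on low values. Cells were haploid BY4742 yeast, mating type α, labelled as wild type although all groups carry the his3Δ1, leu2Δ0, lys2Δ0 and ura3Δ0 alleles of that laboratory strain. They were grown for 48 h at 25 °C in YPD, a rich medium with glucose, to stationary phase. Control cells (n = 3) were taken before any heating. Heat ramp cells (n = 3) were warmed at 0.5 °C per min and heat shock cells (n = 3) at 50 °C per min, and both were held at 50 °C for 30 min and returned at once to 25 °C before total RNA was extracted. The 3 replicates of a group were independent cultures, and each culture gave 1 sample to every group. All 9 libraries come from 1 strain, so that the values describe this strain in stationary phase, and the rate of warming cannot be told apart from the longer time that the ramp spent between 25 and 50 °C.

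Hsf1 is an essential transcription factor that binds heat shock elements as a trimer and drives chaperone genes, while Msn2 and Msn4 are related zinc finger proteins that enter the nucleus under many stresses and bind the stress response element. Protein kinase A, the kinase released when cyclic AMP binds its regulatory subunit Bcy1, keeps Msn2 and Msn4 out of the nucleus and restrains the kinases Rim15 and Yak1 in growing cells. Yap1 and Skn7 act on genes of the oxidative stress response, and Gis1 and Xbp1 act late in growth, when glucose has run out. Most of these proteins are known to be switched by phosphorylation, by oxidation or by moving between compartments, none of which is measured in RNA.

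Between 22579312 and 27233289 reads were counted per library. The values below are normalized counts, in which the size factor of a library divides its reads, and the 10 genes had from 920 to 14878 reads in a library. The size factors lay between 1.40 and 1.46 for control libraries, 0.610 and 0.714 for ramp libraries and 1.11 and 1.13 for shock libraries. Scaling by total count in place of size factors shifts the median feature by −0.92 on the log2 scale for heat ramp against control, by −0.17 for heat shock against control and by −0.74 for heat ramp against heat shock. Each change of the 10 regulators is therefore given below with its value under total count scaling where the call or the direction differs. For the gene lists the counts under that scaling are given, with values for only some of the genes. The 10 most abundant features held 20.4% ± 0.386 (SD, n = 3) of the reads after the heat ramp, against 6.31% ± 0.165 in the control and 9.02% ± 1.69 after the heat shock. In bulk RNA, fewer intact cells and less RNA per cell cannot be told apart. LEU2, LYS2 and URA3, deleted in this strain, had 0 reads in every library, where a count of 0 allows up to 3 reads. The α-specific genes MFALPHA1, MFALPHA2 and STE3 had 309 to 25710 reads in a library and the a-specific genes MFA1, MFA2, STE2 and BAR1 had 21 to 2703. In the control the α-specific means were 13843, 258 and 3833 normalized counts, and the a-specific means 242, 766, 1358 and 473, in the same order. Transcripts of both classes were therefore present in cells labelled mating type α, and the reason was not tested. Heat ramp replicate 2 lay apart from the other ramp cultures for YAP1, GIS1 and XBP1, and heat shock replicate 2 lay apart for the chaperone genes that Hsf1 acts on. Values without these libraries are given beside those genes. Heat ramp replicate 2 was also the lowest ramp library for MSN2, MSN4, RIM15, YAK1 and BCY1, and for 14 of the 20 Msn2 and Msn4 target genes listed below. Without it the log2 fold changes after the ramp were −0.13 for MSN2, −1.30 for MSN4, 1.16 for RIM15, 0.98 for YAK1 and 2.24 for BCY1. The median of those 20 target genes was then 3.12, with all 20 still higher.

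After the heat ramp 5 of the 10 regulators were higher than in the control (GIS1, XBP1, RIM15, YAK1 and BCY1) and 3 were lower (HSF1, MSN4 and YAP1), with limma adjusted p-values under 0.05. Over all 6847 features tested, 78.5% passed that threshold, 39.0% higher and 39.5% lower, so 8 of 10 is near the background. The groups did not overlap for 9 of the 10, against 80.8% of all features. After the heat shock 1 regulator was higher (SKN7) and 5 were lower (HSF1, MSN4, YAP1, GIS1 and YAK1), against 57.6% of all features (29.9% higher and 27.7% lower), and 9 of the 10 did not overlap the control, against 68.1%. The direct comparison of heat ramp and heat shock called 8 of the 10, with 6 higher and 2 lower after the ramp, against 72.0% of all features (35.9% higher and 36.1% lower), and 8 did not overlap, against 72.1%. The median log2 fold change of the 10 was 0.32 after the ramp, −0.53 after the shock and 0.98 between them, where the medians over all features were −0.01, 0.04 and 0.04. Under total count scaling BCY1 alone was higher after the ramp and 5 regulators were lower, against 19.4% and 64.0% of all features and 83.4% in all. After the shock none was higher and 7 were lower under that scaling, against 22.3% and 35.1% (57.4% in all). Between ramp and shock 5 were higher and 4 lower, against 17.3% and 59.8% (77.1% in all). The groups then did not overlap for 6 of the 10 after the ramp, 8 after the shock and 9 between them, against 85.2%, 68.1% and 77.1% of all features.

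**Figure D1:**
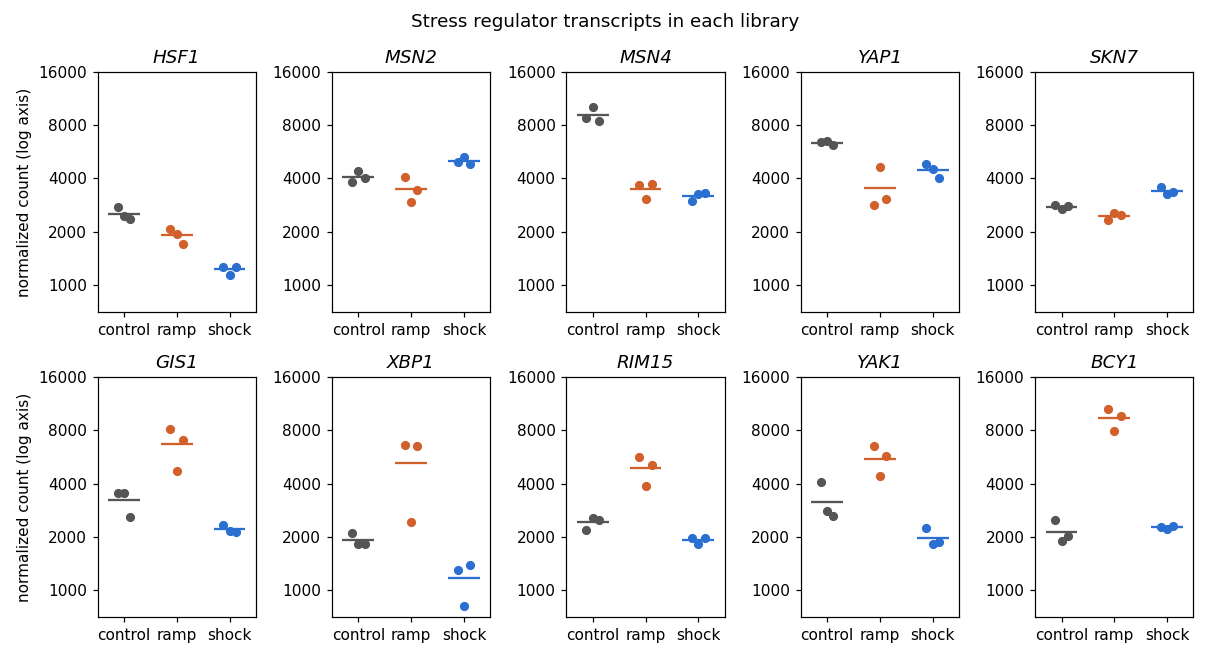
Normalized counts of each regulator (log axis) in the 3 control, 3 heat ramp and 3 heat shock libraries, with 1 point per library and a bar at the group mean. BCY1 sits between 7974 and 10508 after the ramp and below 2498 in every other library, and MSN4 sits at 8421 or more in the control and below 3713 in both heated groups.

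HSF1 (chromosome VII, 368753 to 371254, R64 assembly) encodes the heat shock factor itself. Its normalized counts were 2744, 2442 and 2368 in the control, 2066, 1930 and 1709 after the heat ramp and 1261, 1136 and 1267 after the heat shock. No group overlapped another, and the shock libraries were the lowest. HSF1 changed by −1.04 on the log2 scale after the shock (standard error 0.119, limma adjusted p = 1.09e-05) and −0.41 after the ramp (standard error 0.119, limma adjusted p = 0.00629). The ramp stood above the shock by 0.64 (limma adjusted p = 0.000250), but under total count scaling this difference was −0.11 with overlapping groups and did not pass the test (limma adjusted p = 0.456), while HSF1 stayed lower than the control in both treatments at −1.32 and −1.22.

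MSN2 (chromosome XIII, 344403 to 346517) and MSN4 (chromosome XI, 323228 to 325120) are paralogs with overlapping roles, and MSN4 is the one whose own transcription is known to respond to stress. MSN2 had 3806, 4375 and 4022 normalized counts in the control, 4044, 2933 and 3415 after the ramp and 4948, 5269 and 4837 after the shock. Ramp and control overlapped, with a log2 fold change of −0.24 (standard error 0.131, limma adjusted p = 0.104). It passed without heat ramp replicate 1 (−0.36, limma adjusted p = 0.0241) and with TMM scaling (−0.31, limma adjusted p = 0.0415). The shock libraries were all above the control, but the log2 fold change of 0.30 did not pass the test (limma adjusted p = 0.0599), and it passed in the fits without heat ramp replicate 1 or 2 (limma adjusted p = 0.0409 and 0.0215). It also passed on only the groups compared (limma adjusted p = 0.0180) and in DESeq2 (adjusted p = 0.0446). Directly compared, MSN2 was lower after the ramp than after the shock by 0.55 on the log2 scale (limma adjusted p = 0.00180). With total count scaling MSN2 was also lower after the ramp than in the control, by 1.16 (limma adjusted p = 7.63e-07).

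MSN4 had 8739, 10160.0 and 8421 normalized counts in the control. After the ramp it had 3676, 3072 and 3713, and after the shock 2965, 3245 and 3289. Both heated groups lay wholly below the control and overlapped each other. On the log2 scale the changes were −1.39 after the ramp (standard error 0.125, limma adjusted p = 1.83e-07) and −1.52 after the shock (standard error 0.125, limma adjusted p = 7.46e-07), and under total count scaling −2.30 and −1.69. Ramp and shock differed by 0.14 (limma adjusted p = 0.341), which became −0.61 under total count scaling (limma adjusted p = 0.000449).

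A ratio of the paralogs within a library does not depend on how the libraries are scaled. The log2 ratio of MSN4 to MSN2 was 1.20, 1.22 and 1.07 in the control, −0.14, 0.07 and 0.12 after the ramp and −0.74, −0.70 and −0.56 after the shock. The order control, ramp, shock held with no overlap, so that MSN4 had more counts than MSN2 in every control library and fewer in every shock library. An exact permutation test of 3 against 3 gave p = 0.1 in each of the 3 comparisons, the smallest it can give, and 0.12 after Benjamini-Hochberg adjustment over the 12 ratio tests. It treated the libraries as independent and did not use their pairing by culture. Counts are not corrected for length here, and the coding lengths of 1893 bases for MSN4 and 2115 for MSN2 shift every library's ratio by the same amount.

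**Figure D2:**
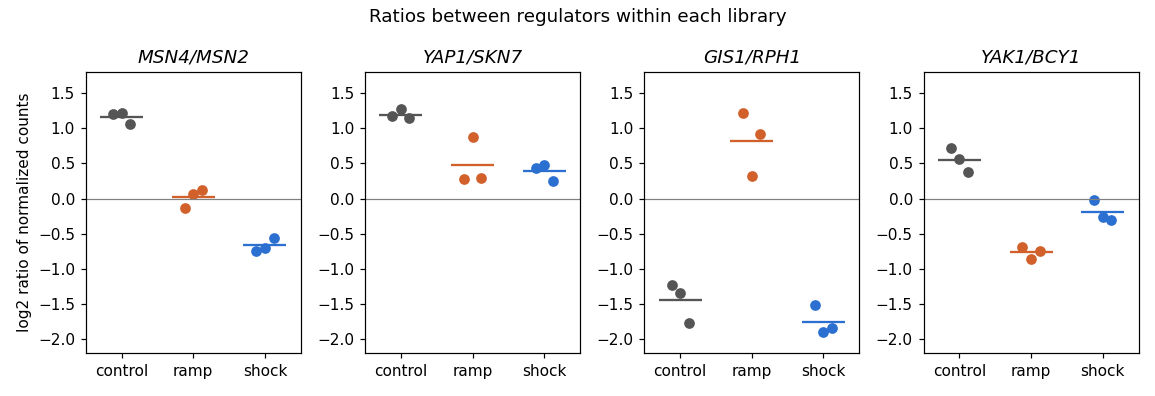
Log2 ratio of normalized counts of 4 gene pairs in each library, with 1 point per library and a bar at the group mean. MSN4/MSN2 falls from a mean of 1.16 in the control to 0.02 after the ramp and −0.66 after the shock, and GIS1/RPH1 is above 0 in the 3 ramp libraries and below −1.2 in the other 6.

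YAP1 (chromosome XIII, 253848 to 255800) encodes the basic leucine zipper factor of the oxidative stress response. It had 6391, 6468 and 6151 normalized counts in the control, 2827, 4647 and 3049 after the ramp and 4832, 4501 and 3995 after the shock. Every heated library was below every control library, and ramp replicate 2 fell within the range of the shock. Its log2 fold change was −0.89 after the ramp (standard error 0.165, limma adjusted p = 0.000196) and −1.11 without ramp replicate 2. After the shock it was −0.52 (standard error 0.165, limma adjusted p = 0.0156), and this call was lost without heat shock replicate 3 (−0.44, limma adjusted p = 0.0657). Ramp against shock gave −0.37 and did not pass (limma adjusted p = 0.0554). It passed without ramp replicate 2 (−0.59, limma adjusted p = 0.000404), without shock replicate 3 (−0.45, limma adjusted p = 0.0498), with the culture as a block (limma adjusted p = 0.0472) and under total count scaling (−1.12, limma adjusted p = 3.44e-05).

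SKN7 (chromosome VIII, 512732 to 514600) encodes a response regulator with a DNA-binding domain like that of Hsf1, which works with Yap1. It had 2839, 2689 and 2784 normalized counts in the control, 2329, 2546 and 2481 after the ramp and 3582, 3246 and 3351 after the shock. It varied little within groups, with coefficients of variation of 2.75% in the control, 4.54% after the ramp and 5.07% after the shock. The 3 groups did not overlap. The value of −0.18 on the log2 scale after the ramp did not pass the test (limma adjusted p = 0.141), but passed with TMM scaling (−0.24, limma adjusted p = 0.0490) and total count scaling (−1.09, limma adjusted p = 3.12e-07). That of 0.29 after the shock passed (limma adjusted p = 0.0304), but not under total count scaling (0.12, limma adjusted p = 0.397), nor without control replicate 1, 2 or 3 or shock replicate 1 or 3 (limma adjusted p from 0.0543 to 0.0999). Ramp against shock gave −0.47 (limma adjusted p = 0.00121). The log2 ratio of YAP1 to SKN7 was 1.17, 1.27 and 1.14 in the control, 0.28, 0.87 and 0.30 after the ramp and 0.43, 0.47 and 0.25 after the shock. Both heated groups were below the control and overlapped each other (exact permutation p = 0.1 and 0.1 against the control, and 0.8 between them). The difference between ramp and shock was 0.10 with all libraries and −0.10 without ramp replicate 2.

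GIS1, XBP1, RIM15 and YAK1 shared a pattern. Each was highest after the heat ramp and lowest after the heat shock, with no overlap between any of the 3 groups. The share of all features with this order was not computed. Groups did not overlap for 80.8% of all features after the ramp, 68.1% after the shock and 72.1% between ramp and shock. GIS1 (chromosome IV, 637139 to 639823) encodes a zinc finger protein that acts after glucose is exhausted, downstream of Rim15. It had 3559, 3526 and 2599 normalized counts in the control, 8162, 4719 and 7080 after the ramp and 2332, 2167 and 2116 after the shock. GIS1 changed by 1.02 on the log2 scale after the ramp (standard error 0.183, limma adjusted p = 0.000150), or 1.25 without ramp replicate 2, and by −0.54 after the shock (limma adjusted p = 0.0223). The second was lost without control replicate 1 or 2 or shock replicate 2 or 3 (limma adjusted p from 0.0537 to 0.0859). RPH1, the paralog of GIS1 and a histone demethylase, went the other way after the ramp, from 8681 ± 320 (SD, n = 3) in the control to 3683 ± 147, and stood at 7435 ± 690 after the shock. The log2 ratio of GIS1 to RPH1 was −1.22, −1.34 and −1.76 in the control, 1.22, 0.32 and 0.92 after the ramp and −1.52, −1.89 and −1.84 after the shock. All ramp libraries were above all others (exact permutation p = 0.1 against either group), and control and shock overlapped (p = 0.2).

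XBP1 (chromosome IX, 175307 to 177250) encodes a repressor whose known targets include cyclin genes, and its transcript is known to be induced by stress. It had 2093, 1831 and 1816 normalized counts in the control, 6640, 2433 and 6521 after the ramp and 1294, 814 and 1387 after the shock. It was the most variable regulator after the ramp, with a coefficient of variation of 46.1%, since ramp replicate 2 stayed close to the control. The log2 fold change after the ramp was 1.31 (standard error 0.308, limma adjusted p = 0.00141), or 1.78 without ramp replicate 2. After the shock it was −0.75 and just missed the threshold (limma adjusted p = 0.0505), and it passed with the culture as a block (limma adjusted p = 0.0123) and without any 1 of the ramp libraries (limma adjusted p = 0.0448, 0.00185 and 0.0447). It also passed on protein-coding genes alone, with TMM scaling and on only the groups compared (limma adjusted p = 0.0494, 0.0460 and 0.00432). In edgeR it passed (adjusted p = 0.0434), but in DESeq2 it did not (adjusted p = 0.126). Ramp against shock gave 2.06 (standard error 0.308, limma adjusted p = 3.24e-05).

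RIM15 (chromosome VI, 69115 to 74427) encodes the kinase through which the loss of nutrient signals reaches Msn2, Msn4 and Gis1. It had 2177, 2552 and 2504 normalized counts in the control, 5665, 3854 and 5101 after the ramp and 1962, 1813 and 1965 after the shock. The log2 fold change was 1.00 after the ramp (standard error 0.142, limma adjusted p = 1.72e-05). The value of −0.33 after the shock did not pass (limma adjusted p = 0.0598), and passed in the fits without ramp replicate 1 or 2 (limma adjusted p = 0.0465 and 0.0115). It also passed with TMM scaling and on only the groups compared (limma adjusted p = 0.0451 and 0.0129), and in edgeR (adjusted p = 0.0441). Ramp against shock was 1.33 (limma adjusted p = 1.08e-06).

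YAK1 (chromosome X, 147967 to 150390) encodes a kinase that slows growth and opposes protein kinase A. It had 4091, 2800 and 2605 normalized counts in the control, 6498, 4395 and 5731 after the ramp and 2240, 1826 and 1874 after the shock. Control replicate 1 was well above the other control libraries but below every ramp library. The log2 fold change was 0.82 after the ramp (standard error 0.181, limma adjusted p = 0.000852), −0.65 after the shock (limma adjusted p = 0.00717) and 1.47 between ramp and shock (limma adjusted p = 4.57e-06). IRC9 (YJL142C, 147819 to 148211) overlaps the end of YAK1 on the same strand, and it had only 17.8 to 77.0 normalized counts in a library.

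The higher levels of these 4 genes after the ramp depend on the scaling. Under total count scaling their log2 fold changes against the control were 0.10 for GIS1, 0.39 for XBP1, 0.08 for RIM15 and −0.10 for YAK1, with overlapping groups and limma adjusted p-values from 0.210 to 0.610. The shock then stood lower than the control for all 4, from −0.50 for RIM15 to −0.92 for XBP1, with limma adjusted p-values from 0.00102 to 0.0117. Ramp against shock kept its direction and passed the test for all 4 under both scalings, at 0.81 for GIS1, 1.31 for XBP1, 0.59 for RIM15 and 0.73 for YAK1 under total count scaling.

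**Figure D3:**
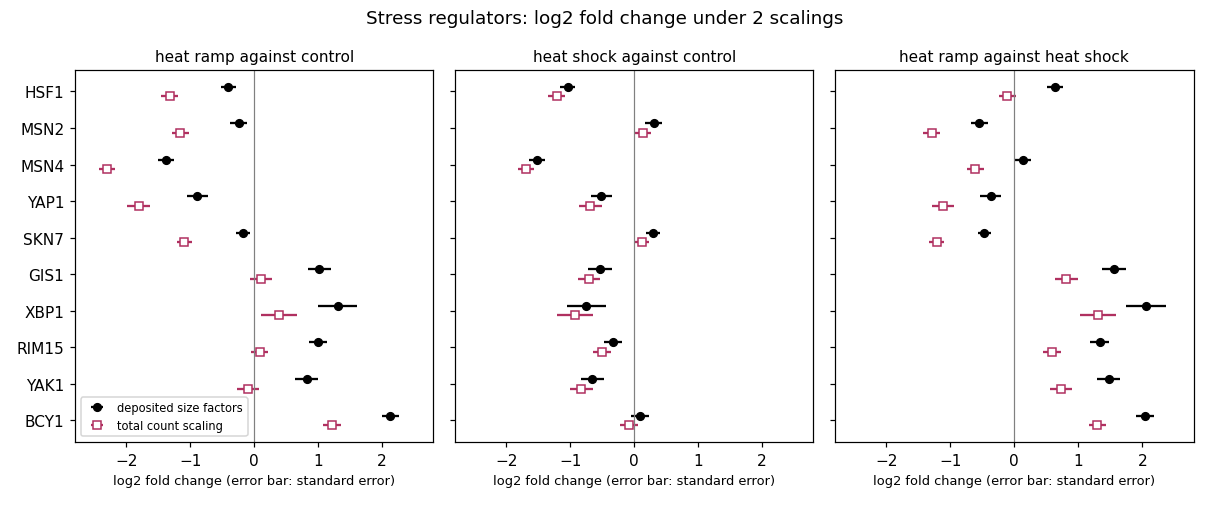
Log2 fold change of each regulator in the 3 comparisons, with limma standard errors as bars, for the deposited size factors (filled) and for libraries scaled to their total count (open). GIS1, XBP1, RIM15 and YAK1 move from 0.82 to 1.31 down to between −0.10 and 0.39 after the ramp, BCY1 stays above 1, and HSF1 and MSN4 change sign between ramp and shock in the third panel.

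The stress response element, written AGGGG on one strand and CCCCT on the other, was searched in the 600 bases before each start codon of the R64 sequence (RefSeq), because GIS1, XBP1, RIM15 and YAK1 moved together. It was present in 39.7% of 5999 such windows and in 5 of the 10 regulators, MSN2, YAP1, GIS1, XBP1 and YAK1. XBP1 held 5 copies, a number reached in 0.333% of all windows, and YAK1 held 3, reached in 2.43%. The 3 sites of XBP1 farthest from the start codon and those of YAK1 are shown with 30 bases of the coding strand each, 5′ to 3′ and with the element in capitals, since these are the promoters with several copies.
XBP1, chrIX:177807-177836, minus strand: tctgtgcctgagtCCCCTaatttgtgactc
XBP1, chrIX:177697-177726, minus strand: ttattcaccctcaCCCCTaatacccgtttc
XBP1, chrIX:177650-177679, minus strand: gcttcgaagcgccCCCCTtgcgctgggcct
YAK1, chrX:150623-150652, minus strand: ttaaccctaaccgCCCCTtctgaaccattg
YAK1, chrX:150596-150625, minus strand: ttgcaagcaatgcCCCCTcctcagatttac
YAK1, chrX:150580-150609, minus strand: ctcctcagatttaCCCCTtctgggctgaac
In YAK1 each window overlaps the next. In XBP1 the copies shown began 416 to 573 bases before the start codon, and in YAK1 206 to 249 bases before it. RIM15 and MSN4 held no copy in these windows, and none of the 10 held a heat shock element of 3 units (GAA, TTC and GAA, or TTC, GAA and TTC, with 2 bases between units and read on both strands, in 1.70% of windows). The window of 600 bases was chosen after the data were seen. In the 300 bases first planned, the stress response element was present in YAP1 and YAK1 of the 10, not in XBP1, and in 22.2% of 6001 windows. A match of letters is a description and does not show that a factor binds there.

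BCY1 (chromosome IX, 290419 to 291669), encodes the regulatory subunit that holds protein kinase A inactive. It had 2497, 1903 and 2009 normalized counts in the control, 10508, 7974 and 9588 after the ramp and 2273, 2199 and 2309 after the shock. The ramp libraries stood far above all others, and control and shock overlapped. The log2 fold change after the ramp was 2.13 (standard error 0.136, limma adjusted p = 6.22e-09), a 4.38-fold difference, and 1.22 under total count scaling (limma adjusted p = 4.57e-07). After the shock it was 0.09 (standard error 0.136, limma adjusted p = 0.586), and −0.08 under total count scaling. Ramp against shock was 2.04 (limma adjusted p = 1.01e-08). The log2 ratio of YAK1 to BCY1 was 0.71, 0.56 and 0.37 in the control, −0.69, −0.86 and −0.74 after the ramp and −0.02, −0.27 and −0.30 after the shock, with no overlap between groups (exact permutation p = 0.1 in each comparison).

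Beside BCY1, 13 genes of the Ras and protein kinase A pathway were followed. After the ramp 6 were higher and 4 lower, with a median log2 fold change of −0.07, against 39.0% and 39.5% of all features. After the shock 1 was higher and 5 lower, against 29.9% and 27.7%, with a median of −0.27 that became 0.19 without shock replicate 2. Without control replicate 1 none was higher and 3 were lower after the shock, and without shock replicate 3, 1 and 3. Without shock replicate 1, 2 were higher. Scaled to total count, 4 were higher and 7 lower after the ramp, against 19.4% and 64.0%, and none higher and 6 lower after the shock, against 22.3% and 35.1%. TPK2 and TPK3 encode catalytic subunits that Bcy1 binds. TPK2 rose after the ramp from 1466 ± 133 to 4401 ± 339 normalized counts (SD, n = 3), a log2 fold change of 1.59 (0.67 under total count scaling). TPK3 went the other way, from 1922 ± 68.8 to 998 ± 201 (−0.96). Neither passed the test after the shock.

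The genes on both sides of Ras divided likewise. IRA2 and IRA1 encode proteins that switch Ras off. IRA2 had 9700, 6429 and 7214 normalized counts in the control, 126835, 86318 and 113766 after the ramp and 11412, 6964 and 11345 after the shock. The ramp libraries were all far above the rest, at a log2 fold change of 3.81 (standard error 0.221, limma adjusted p = 2.62e-09), or 2.90 under total count scaling. IRA1 rose from 3216 ± 283 to 10140 ± 1197 (1.65, or 0.74 under total count scaling). RAS1 fell from 4402 ± 508 to 899 ± 132 after the ramp (−2.29, limma adjusted p = 1.08e-08). RAS2 was higher after the ramp (3196 ± 236 against 2051 ± 319, log2 fold change 0.65), although under total count scaling it stood at −0.27 and did not pass, and it was lower after the shock (721 ± 47.3, −1.50, limma adjusted p = 1.22e-06). CDC25, which switches Ras on, was lower after the ramp (−0.35).

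Downstream of Ras, CYR1, the adenylate cyclase, rose after the ramp from 2672 ± 128 to 5825 ± 691 (1.12, or 0.20 under total count scaling) and fell after the shock to 1516 ± 145 (−0.82). PDE1, a phosphodiesterase that breaks down cyclic AMP, moved the same way (1.30 and −0.44, or 0.39 and −0.62 under total count scaling). PDE2, the other phosphodiesterase, was higher after the shock (0.54, limma adjusted p = 0.0337) with groups that overlapped, and did not pass under total count scaling (0.36). The glucose receptor gene GPR1 was lower in both treatments (−0.41 and −1.27), and GPA2, the α subunit of its G protein, was lower after the shock (−0.36) with groups that overlapped. RGS2, a regulator of Gpa2, passed the test in neither comparison with the control. Under total count scaling PDE2, GPA2 and RGS2 were also lower after the ramp, at −1.12, −0.99 and −1.16.

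**Figure D4:**
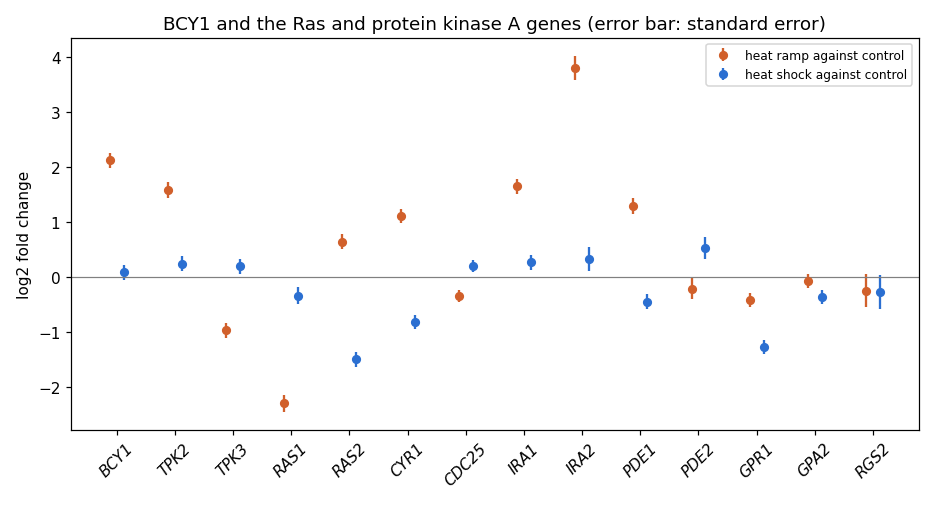
Log2 fold change against the control, with limma standard errors as bars, of BCY1 and 13 genes of the Ras and protein kinase A pathway in heat ramp and heat shock libraries, with the deposited size factors. IRA2 at 3.81 and BCY1 at 2.13 are the highest after the ramp, and RAS2 at −1.50 and GPR1 at −1.27 the lowest after the shock. Under total count scaling RAS2 turns to −0.27 after the ramp.

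Genes that the regulators are known to act on were read from the same fit. The lists were chosen with earlier results of these data known, so the counts below describe them and are not a test of the regulators. All 20 genes of the Hsf1 list, which are chaperones, cochaperones and sorting factors with 1 coactivator, were higher after the ramp, against 39.0% of all features. Their median log2 fold change was 3.58 and the lowest value 1.78. All 20 were higher under total count scaling too, against 19.4%. After the shock 3 were higher (AHA1, HCH1 and BTN2), 2 were lower (STI1 and CPR6) and the median was 0.39, against 29.9% and 27.7% of all features. These counts rest on heat shock replicate 2, which was the lowest of its group for 19 of the 20 genes and below every control library for 15, whereas replicates 1 and 3 were above every control library for 17 and 15. The cytosolic Hsp70 gene SSA1, for example, had 36297, 28907 and 28458 normalized counts in the control and 85980, 24622 and 58069 after the shock. Without shock replicate 2, 15 were higher and 1 (STI1) was lower, with a median of 0.68, against 26.4% and 25.2% of all features. Without shock replicate 1, 1 was higher and 3 were lower, with a median of 0.17, and without any 1 of the other libraries 2 or 3 were higher and 1 or 2 lower. Under total count scaling 2 were higher and 3 lower after the shock, against 22.3% and 35.1%. BTN2, an aggregate sorting factor, had the largest increase in both, with 16018, 15426 and 13245 normalized counts in the control, 307961, 379921 and 367772 after the ramp and 93222, 21863 and 69116 after the shock. Its shock libraries were all above the control but spread over a wide range (log2 fold change 1.81, limma adjusted p = 0.00138). STI1, a cochaperone of Hsp70 and Hsp90, went from 15066 ± 1551 to 133266 ± 1610 after the ramp and 9199 ± 3140 after the shock (−0.77, limma adjusted p = 0.00891). HSF1 itself was lower than the control in both treatments, as given above.

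All 20 genes of the Msn2 and Msn4 list, which serve trehalose, glycogen and hexose metabolism and stress protection, were higher after the ramp, with a median log2 fold change of 3.06, and 19 of them under total count scaling, with the exception of GLC3, the glycogen branching enzyme (0.83, or −0.08 under total count scaling). Over all features 39.0% were higher after the ramp, and 19.4% under total count scaling. After the shock none of the 20 was higher and 13 were lower, with a median of −0.52, against 29.9% and 27.7% of all features. Under total count scaling 17 of them were lower after the shock, against 35.1%. Leaving out any 1 library gave none higher and from 10 to 14 lower after the shock. The fewest came without control replicate 1 or shock replicate 2. TSL1, a subunit of trehalose synthase, had 9931, 5068 and 4735 normalized counts in the control, 450665, 271216 and 442882 after the ramp and 5451, 4088 and 4851 after the shock. Its ramp value was the highest of the list (5.93), and its shock libraries overlapped the control. HSP26, a small heat shock protein, was the lowest of the list after the shock, at 7572 ± 521 against 18912 ± 1362 in the control (−1.32, limma adjusted p = 1.56e-05), and it stood at 563744 ± 31796 after the ramp.

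Of the 15 genes of the Yap1 and Skn7 list, 5 were higher after the ramp (TSA1, AHP1, FLR1, SRX1 and CCP1) and 3 lower (GSH1, ATR1 and OYE3), with a median log2 fold change of −0.02, or 0.12 without ramp replicate 2. The 3 lower became 1 without control replicate 2 or 3 or ramp replicate 1. With total count scaling 4 were higher and 9 lower, against 19.4% and 64.0% of all features, and FLR1 went from 0.60 to −0.31. The peroxiredoxin AHP1 rose most, from 5482 ± 692 to 35449 ± 13789 normalized counts (2.62), and was lower after the shock (3312 ± 690, −0.74). GSH1, the first enzyme of glutathione synthesis, was lower after the ramp (−0.49). After the shock 2 genes were higher, ATR1 and the glutathione peroxidase GPX2 (0.42), and 3 lower. The 2 higher became 1 without any 1 control library or shock replicate 2. Total count scaling left none of the 15 higher and 4 lower after the shock, against 22.3% and 35.1%. Over all features 39.0% were higher and 39.5% lower after the ramp, and 29.9% and 27.7% after the shock.

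**Figure D5:**
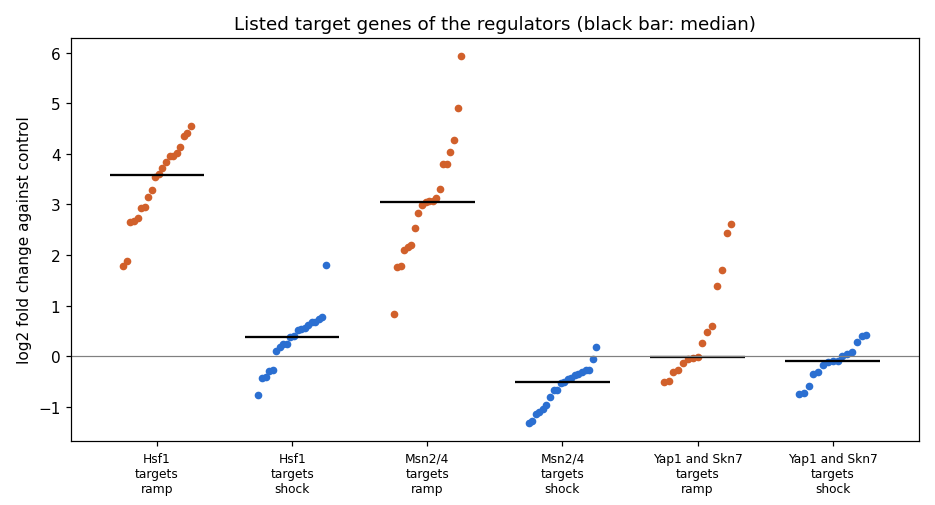
Log2 fold change against the control of each gene in the lists of Hsf1 targets (20 genes), Msn2 and Msn4 targets (20 genes) and Yap1 and Skn7 targets (15 genes), in heat ramp and heat shock libraries, in order of value within a column, with a bar at the median. The medians are 3.58, 3.06 and −0.02 after the ramp and 0.39, −0.52 and −0.10 after the shock, and the 0.39 of the Hsf1 list becomes 0.68 without heat shock replicate 2.

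The promoters of these lists were searched with the same letters, and 3 windows of 30 bases are shown as examples of what the factors are known to bind, taken from the named genes BTN2, HSP104 and TSL1 (coding strand, 5′ to 3′, site in capitals).
BTN2, heat shock element, chrVII:772106-772135, plus strand: ttttttctaGAAAGTTCCGGAAaattgcga
HSP104, heat shock element, chrXII:88317-88346, plus strand: atttttccaGAATTTTCTAGAAgggttatt
TSL1, stress response element, chrXIII:70233-70262, plus strand: cgttcagggtaaaAGGGGcgaaacagaggg
In the 600 bases before the start codon, 11 of the 20 Hsf1 genes held a heat shock element of 3 units, against 1.70% of all windows, and all 20 genes of the Msn2 and Msn4 list held a stress response element, against 39.7%. The stress response element was also in 10 of the 20 Hsf1 genes and 8 of the 15 Yap1 and Skn7 genes. The heat shock element was in 1 of the 20 Msn2 and Msn4 genes and 0 of the 15 Yap1 and Skn7 genes. HSP104 held 3 stress response elements, BTN2 held 1, and TSL1 held 1 heat shock element. HSP104, the disaggregase gene, had the largest difference between ramp and shock of the Hsf1 list (4.31). The Yap1 sites TTACTAA or TTAGTCA were in 13 of the 15 genes of the Yap1 and Skn7 list, against 19.9%. Among the regulators they were in SKN7 and RIM15. In the 300 bases first planned, the heat shock element was in 8 of the 20 Hsf1 genes, against 0.867% of windows. There the stress response element was in 16 of the 20 Msn2 and Msn4 genes, against 22.2%, and the Yap1 sites in 9 of the 15 genes, against 11.2%. The lists were put together from what is known of these factors and with earlier results of these data known, so these shares describe the lists and test nothing.

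Of 12 genes around Rim15 and Yak1, 4 were higher and 3 lower after the ramp, and 3 higher and 4 lower after the shock, against 39.0%, 39.5%, 29.9% and 27.7% of all features. The 4 lower after the shock became 1 without shock replicate 2, and 2 without any 1 control library or shock replicate 3. The 3 higher became 2 without control replicate 3. SCH9, a kinase that restrains Rim15, fell after the ramp from 6344 ± 585 to 3170 ± 122 normalized counts (limma adjusted p = 4.29e-06) and was higher after the shock (8524 ± 918), where it did not pass under total count scaling. BMH1, a 14-3-3 protein, rose after the ramp from 23117 ± 639 to 106638 ± 11652 (2.20). IGO1 and IGO2, the substrates of Rim15, were higher after the ramp (0.44 and 0.53) and lower after the shock, but after the ramp stood at −0.48 and −0.39 under total count scaling. IGO2 had 683 ± 80.2 in the control, 985 ± 91.5 after the ramp and 396 ± 107 after the shock (−0.82), and POP2, a deadenylase that Yak1 phosphorylates, was higher after the shock (0.48). With total count scaling 1 of the 12 (BMH1) was higher after the ramp and 9 were lower, against 19.4% and 64.0%. After the shock 1 was higher and 5 were lower under that scaling, against 22.3% and 35.1%.

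Among 12 genes for proteins that move, modify or hold Msn2, Msn4, Yap1 and Skn7, 4 were higher and 5 lower after the ramp, and 1 higher and 4 lower after the shock, against 39.0%, 39.5%, 29.9% and 27.7% of all features. The 4 lower after the shock became 1 without control replicate 1 and 2 without shock replicate 2. None was higher and 9 were lower after the ramp under total count scaling, against 19.4% and 64.0%. After the shock 1 was higher and 6 were lower under that scaling, against 22.3% and 35.1%. CRM1, the exporter of Yap1, rose after the ramp from 8004 ± 598 to 14077 ± 1285 (0.81), but stood at −0.10 under total count scaling. YPD1, which passes phosphate to Skn7, was lower after the ramp (−0.99). YBP1, a partner of Yap1, was higher after the shock (0.46) and WHI2, which helps to activate Msn2, was lower (−0.44).

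The 20 other stress transcription factors and relatives of the regulators divided into 8 higher and 8 lower after the ramp, and 2 higher and 9 lower after the shock, against 39.0%, 39.5%, 29.9% and 27.7% of all features. Total count scaling gave 5 higher and 13 lower after the ramp, against 19.4% and 64.0% of all features. After the shock it gave 2 higher and 12 lower, against 22.3% and 35.1%. MGA1, which has a DNA-binding domain like that of Hsf1, rose most after the ramp, with 303, 277 and 182 normalized counts in the control, 7274, 4749 and 7111 after the ramp and 339, 273 and 329 after the shock. Its log2 fold change after the ramp was 4.65 (3.74 under total count scaling). HOT1, a factor of the osmotic stress response, was the lowest after the ramp (−1.90). After the shock CIN5, a relative of YAP1, was the highest (3462 ± 1022 against 1554 ± 235, 1.12) and COM2 the lowest (2318 ± 1119 against 8922 ± 704, −2.08).

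Levels of different genes were compared as normalized counts per kilobase of coding length. In the control MSN4 (4811 ± 489, SD, n = 3) and YAP1 (3245 ± 84.7) stood above the others, and RIM15 (454 ± 38.4) below them. Between MSN2 (1923 ± 136) and BCY1 (1708 ± 253), and from SKN7 (1482 ± 40.7) through YAK1, GIS1 and HSF1 to XBP1 (984 ± 80.1), neighbours in this order overlapped. After the ramp BCY1 led with 7479 ± 1025, neighbours from XBP1 (2674 ± 1232) through GIS1, YAK1, MSN4 and YAP1 to MSN2 (1638 ± 263) overlapped, and HSF1 was last (760 ± 72.0), overlapping RIM15. After the shock MSN2 (2373 ± 106) and YAP1 (2275 ± 216) overlapped at the top, and HSF1 (488 ± 29.6) and RIM15 (360 ± 16.3) were last without overlap. As a rank per library among the coding genes tested, which no scaling changes, BCY1 moved from the 61.6 to 68.0 percentile in the control to 90.4 to 92.1 after the ramp and 65.4 to 67.2 after the shock. MSN4 moved from 85.2 to 88.3 in the control to 66.4 to 71.1 and 63.0 to 65.6, and HSF1 from 44.3 to 49.1 to 42.5 to 48.7 and 27.2 to 30.0. For HSF1 the ranks of control and ramp overlapped.

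All 10 regulators together held 0.199% ± 0.0134 of the reads (SD, n = 3) in the control, 0.130% ± 0.0165 after the ramp and 0.125% ± 0.00465 after the shock, so both heated groups lay below the control and overlapped each other.

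The genes most like each regulator were taken as those with the smallest distance between log2 profiles over the 9 libraries, among 5911 other coding genes, as a description without a test. Nearest to HSF1 were ETP1 and FAR8 (distances 0.18 and 0.20), nearest to YAP1 were QRI5 and PRP9 (0.21 and 0.22), and nearest to SKN7 were SEC4 and LAM1 (0.25 and 0.26). MSN2 was nearest to MMF1 and YFR006W (0.25 and 0.28) and MSN4 to CFT2 and TLD1 (0.43 and 0.50), so the paralogs did not have each other as neighbours. RIM15 was nearest to IRC24 and ATG31 (0.33 and 0.38), GIS1 to YLR256W-A and ATG14 (0.42 and 0.43) and YAK1 to OAF1 and NNK1 (0.41 and 0.44). ATG14 and ATG31 are autophagy genes. BCY1 was nearest to MF(ALPHA)2 (YGL089C), which encodes the α-factor pheromone, and to HEM15, a gene of heme synthesis (0.35 and 0.36). XBP1 had the most distant neighbours, YLR157W-E and SIZ1 (0.71 and 0.91), of which YLR157W-E had only 8.93 to 51.3 normalized counts as group means.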

How the data were processed

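Poly(A)+ RNA of 9 libraries was sequenced as 50 bp single-end reads. The authors state the RNA integrity number only as an upper bound for all samples, with no value per sample. Differences in RNA integrity between the groups could therefore not be examined. The authors trimmed reads with Trimmomatic 0.32, aligned them to SacCer3 with Bowtie2 and removed unmapped reads. The counting tool, annotation and use of strand are not given in the sources used here. The deposited values are a signal per feature, namely read counts that the authors scaled by DESeq2 size factors. After undoing the scaling, 100% of the values in each library were whole (tolerance 0.01), so reads were recovered. The 2 tables of the whole series repeat these columns and add the authors' own fold changes and p-values, which were not used.

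Values were analysed as log2(normalized count + 1), and fold changes are on that scale. Features whose mean normalized count was 10 or more (6847) were fitted with limma 3.58.1 (R 4.3.3, trended prior, group as only factor), with Benjamini-Hochberg adjustment over all of them, two-sided, threshold 0.05. The script was tested on simulated data. Ratios were tested with an exact permutation test that did not use the pairing of samples by culture. The smallest p-value of 3 against 3 is 0.1. The limit of detection (3 reads) covers counting error only, whereas SDs and limma standard errors are taken from the spread between replicate libraries. Positions and sequences are from R64 (RefSeq), the same assembly as SacCer3. For coding genes the annotation starts at the start codon.

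The study's data file says that each culture gave a sample to every group. The deviations of same-numbered samples from their group means had correlations over features of 0.03, −0.20 and −0.01 between control and ramp, 0.29, 0.04 and 0.05 between control and shock and −0.05, −0.05 and 0.01 between ramp and shock. The culture was tried as a block. The results were also computed with pseudocounts of 0.1 and 5, without the filter, on protein-coding genes alone, with TMM and with total count scaling, with edgeR 4.0.16, with DESeq2 1.42.0, on only the groups compared, and with each library left out, which for the gene lists was added after the data were seen.

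The 10 regulators and all lists were chosen with earlier results of these data known. Genes named are the regulators, the called genes of the Ras and protein kinase A list, the highest and lowest called gene without group overlap in each list and comparison with the control, the ratio genes, and the 2 nearest genes by profile. Other members of lists (named where 5 or fewer passed), HSP104, SSA1, IGO1, RGS2 and IRC9 were named after their values were seen. From the Ras and protein kinase A list 1 gene was left out, and it and some promoter sequence are not reported here.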

Additional observations from a re-analysis of the deposited data

Results flagged for a closer look

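For 6 regulators the log2 fold changes after the heat ramp and the heat shock had opposite signs against the same control, and the direct comparison of ramp and shock in limma passed the threshold. Over all features 72.0% passed in that direct comparison. The share of features that also had opposite signs was not computed, so the count of 6 cannot be set against a background. The effect of the ramp minus that of the shock was 1.56 on the log2 scale for GIS1, 2.06 for XBP1, 1.33 for RIM15 and 1.47 for YAK1, with every ramp library above every shock library, and −0.55 for MSN2 and −0.47 for SKN7, with every ramp library below every shock library. Both changes from the control passed the test on their own for GIS1 and YAK1. For XBP1 and RIM15 that after the ramp did, for SKN7 that after the shock did, and for MSN2 neither did. Under total count scaling the differences were 0.81 for GIS1, 1.31 for XBP1, 0.59 for RIM15, 0.73 for YAK1, −1.29 for MSN2 and −1.21 for SKN7 and all passed, but the ramp against the control was then 0.10, 0.39, 0.08 and −0.10 for GIS1, XBP1, RIM15 and YAK1, with none passing and groups that overlapped, so that YAK1 had the same sign in both treatments.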

How the results depend on the processing

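Of the 570 values that the 19 alternatives gave for the 10 regulators in 3 comparisons, 523 kept their direction and their side of the threshold, 29 came to pass it, 14 no longer passed it and 4 turned direction. All 4 that turned did so under total count scaling: YAK1 after the ramp (−0.10), BCY1 after the shock (−0.081), and HSF1 (−0.11) and MSN4 (−0.61) for ramp against shock. Under that scaling the regulators higher after the ramp went from 5 to 1 and those lower from 3 to 5, those higher after the shock from 1 to 0, and those lower in ramp against shock from 2 to 4. TMM scaling also gave 5 lower after the ramp. After the shock, DESeq2 and the fit of only the groups compared gave 2 higher. Leaving out single libraries gave from 3 to 9 called after the shock, 0 to 2 higher and 3 to 7 lower, with the fewest without heat shock replicate 3, and the difference of the YAP1/SKN7 ratio between ramp and shock, 0.10 with all libraries, ran from −0.10 (without heat ramp replicate 2) to 0.20. With the culture as a replicate block 8, 7 and 9 regulators were called in ramp, shock and ramp against shock, in place of 8, 6 and 8, and XBP1 after the shock and YAP1 in ramp against shock were the calls that changed. Over all features edgeR's quasi-likelihood test on the recovered reads called 5383, 3991 and 4937, where limma called 5375, 3945 and 4929. Total count scaling changed the division into higher and lower from 2670 and 2705 to 1326 and 4384 after the ramp, from 2050 and 1895 to 1526 and 2402 after the shock, and from 2459 and 2470 to 1184 and 4096 between them. The window of 600 bases for promoters was chosen after the data were seen. The cause of these changes was not tested beyond the construction of each alternative.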

Other observations

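Of the listed features that neighbour a regulator by systematic name and that the R64 annotation does not list, YFL032W, next to RIM15, moved most. It had 71.4, 159 and 71.3 normalized counts in the control, 3150, 1801 and 2181 after the heat ramp and 203, 137 and 365 after the heat shock, so all ramp libraries were above all others. YIL100W, next to XBP1, had 40.3, 46.4 and 28.5 in the control, 206, 203 and 215 after the ramp and 31.2, 24.8 and 51.2 after the shock. Unlike XBP1 itself, YIL100W had a ramp replicate 2 close to the other ramp libraries. YGL072C, next to HSF1 by name, had 170, 136 and 149 in the control and 169, 186 and 190 after the ramp. After the shock, where HSF1 was lowest, YGL072C had 242, 300 and 263. For all these features, next to a regulator refers to the systematic name only. Their positions were not examined, so overlap with a regulator or another gene on either strand was not tested. The counts of YGL072C and HSF1 are therefore not shown to come from separate loci. Whether reads of either strand were counted on these features was not tested.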
